A study of Drosophila melanogaster with 4 samples.

Results

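The small heat shock protein genes of Drosophila were examined as a group of 10 genes taken by name, mainly those of the 67B cluster on chromosome arm 3L: Hsp22, Hsp23, Hsp26, Hsp27, Hsp67Ba, Hsp67Bb, Hsp67Bc, CG4461, CG7409 and l(2)efl. They are 10 of the 17697 genes listed for each library, and all 10 were found there. RNA was measured in S2 cells, a cultured line that the labels describe as wild type and of late embryo stage. The heat shock group consisted of 2 libraries of cells kept for 1 h at 37 °C and then for 1 h at 27 °C before lysis, and the untreated group of 2 libraries of cells without stress. Both groups were grown at 27 °C and 5% CO2 in DMEM with 10% FBS to 80% confluency, and polyadenylated RNA was read in 50 bp reads. The heat-shocked replicates were lysed separately. For the untreated replicates the labels give no such statement, so p-values measure the spread between these samples, which may be technical.

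Small heat shock proteins hold unfolded proteins in a soluble form without using ATP, and pass them to Hsp70 and its helpers for refolding or to the degradation machinery. Most of them share an α-crystallin domain and assemble into large oligomers. In fruit flies several of their genes lie side by side at cytological position 67B, where Heat shock factor switches them on within minutes of heat stress, and where the steroid hormone ecdysone can induce some of them without any stress.

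The libraries held 10221418 to 11988483 estimated counts. Hsp70, the main inducible chaperone of the fly, took 12.9% and 14.3% of the counts after heat shock, against 0.0671% and 0.0699% in untreated cells, and its 6 copies summed had a log2 fold change of 8.17 ± 0.15 (SE). Hsp68, a close relative of Hsp70, rose by 8.15 ± 0.12 and Hsp83, the fly Hsp90, by 3.49 ± 0.11 (both log2, SE). Of the 7 hemocyte markers checked, as S2 cells are hemocyte-like, 2 (srp and crq) had at least 1 TPM in every library and 4 were under 1 TPM in all, and 6 of 8 matched markers of other cell types were under 1 TPM in all. The hemocyte markers summed to 206 and 193 TPM after heat shock and to 313 and 322 TPM in untreated cells. Nearly all of this was srp and crq, which went opposite ways in edgeR's quasi-likelihood test. There srp was called higher (log2 fold change 0.37, adjusted p = 0.00856) and crq lower (-0.45, adjusted p = 0.00074). On log2(TPM + 1), 6109 of 8784 genes were called lower and 757 higher, so a lower TPM sum is not particular to these markers. The other markers summed to 24.6 and 26.8 TPM after heat shock and to 28.4 and 31.8 TPM in untreated cells. The part of either list in the results was not tested. Because a few heat-induced genes filled so much of the heat shock libraries, composition factors (TMM) of 0.837 and 0.825 were used for them and of 1.22 and 1.18 for the untreated libraries. Of 8784 genes tested, 1882 were called higher and 1631 lower. Called genes were thus 53.6% higher ones, against 10.9% when libraries were scaled to their total counts, which moved the log2 fold changes by -0.53 at the median, and 25.2% when the heat shock genes were left out of the totals (a shift of -0.20).

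Heat shock raised 8 of the 10 small heat shock protein genes and lowered none. The 4 classical genes of the group, Hsp22, Hsp23, Hsp26 and Hsp27, were already expressed in untreated cells and rose between 66.3-fold and 170-fold. Hsp67Bc, Hsp67Bb, CG4461 and Hsp67Ba were at low levels in untreated cells and rose between 6.63-fold and 101-fold. l(2)efl did not pass the test, and CG7409 had too few counts to be tested. Calls were made at an adjusted p under 0.05 in edgeR's quasi-likelihood test with Benjamini-Hochberg adjustment over all genes tested, and all fold changes are heat shock over untreated. The 8 genes called higher are 8 of the 9 tested members, beside 21.4% of all genes tested (40% were called in either direction), and all 8 were at least 2-fold higher, beside 9.37% of all genes tested. In edgeR 0 members were lower, beside 18.6% of all genes tested, with 0 also at an unadjusted p under 0.05 and 0 in DESeq2 and limma-voom. In CPM, estimated counts scaled to the TMM-adjusted library total, both heat shock libraries lay above both untreated libraries in 9 of the 9 tested members, beside 34.4% of all genes tested (l(2)efl lay the other way in TPM). Their median log2 fold change over the 9 tested members was 6.05, against -0.02 over all genes tested.

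**Figure D1:**
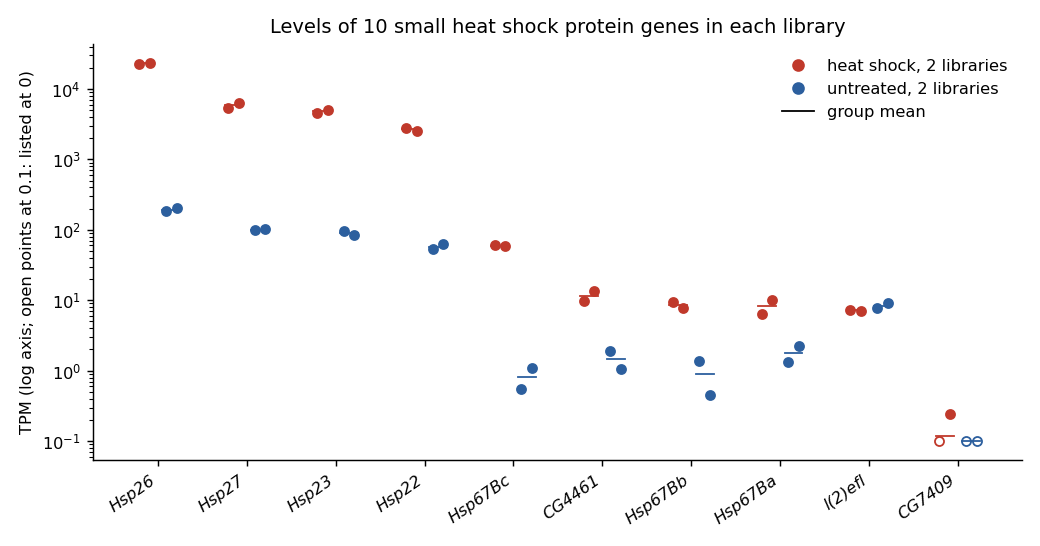
TPM on a log axis for the 10 small heat shock protein genes in the 2 heat shock libraries (red) and the 2 untreated libraries (blue), with the group means as lines and open points for genes listed at 0. The 4 genes at the left lie between 2554 and 23445 TPM after heat shock and between 53.1 and 205 TPM in untreated cells, whereas l(2)efl lies at 7.08 and 7.28 TPM after heat shock and at 7.68 and 9.04 TPM in untreated cells.

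Hsp26, a cytosolic chaperone, was the most abundant member in both groups. It had 139453 and 127265 estimated counts in the heat shock libraries, against 977 and 1100 in the untreated libraries. Both heat shock values lie far above both untreated values, with no overlap. In CPM it averaged 14244 ± 468 after heat shock and 84.0 ± 8.20 in untreated cells (SD, n = 2 each). Its log2 fold change was 7.41 ± 0.11 (SE, adjusted p = 1.1e-09), the 26th highest of all genes tested. By deposited TPM, a level per unit of transcript length, Hsp26 ranked 3 and 4 among all genes in the heat shock libraries and 817 and 718 in the untreated libraries.

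Hsp27, a small chaperone found mainly in the nucleus, had 43801 and 44619 estimated counts after heat shock, against 685 and 706 in untreated cells. Hsp23, a cytosolic chaperone, had 25056 and 24340 estimated counts after heat shock, against 458 and 400 in untreated cells. Hsp22, which works in the mitochondrial matrix, had 17373 and 14048 estimated counts after heat shock, against 286 and 337 in untreated cells. In all 3 genes the replicates lay close together and the groups far apart. Their log2 fold changes were 6.40 ± 0.11 for Hsp27 (adjusted p = 1.6e-09), 6.25 ± 0.10 for Hsp23 (adjusted p = 1.4e-09) and 6.05 ± 0.10 for Hsp22 (adjusted p = 1.6e-09; SE in each case). The change of Hsp26 stands above these: its 95% interval, from 7.15 to 7.66, lies wholly above the highest of their upper bounds, 6.64 for Hsp27. The intervals of Hsp27 (6.15 to 6.64), Hsp23 (6.02 to 6.48) and Hsp22 (5.82 to 6.29) overlap each other. The differences between genes were not tested.

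Hsp67Bc is the fly counterpart of human HSPB8, which acts with the co-chaperone BAG3 in clearing aggregated proteins. It was nearly absent from untreated cells, with 3 and 6 estimated counts there, and had 384 and 326 counts after heat shock. Its log2 fold change was 6.66 ± 0.20 (SE, adjusted p = 1.1e-07), whereas its level after heat shock, 59.2 ± 1.41 TPM, was far under the 2664 ± 156 TPM of Hsp22 (SD, n = 2 each). Because of the few untreated counts its 95% interval is wider, from 6.19 to 7.12, and overlaps those of Hsp22, Hsp23 and Hsp27.

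The other genes of the cluster stayed at low levels after heat shock. CG4461, an α-crystallin gene of little known function, had 54 and 65 estimated counts after heat shock, against 9 and 5 in untreated cells, a log2 fold change of 3.47 ± 0.35 (SE, adjusted p = 0.00016). Hsp67Ba, whose protein is the longest of the group, had 73.6 and 102 estimated counts after heat shock, against 13.01 and 21.97 in untreated cells, a log2 fold change of 2.73 ± 0.33 (SE, adjusted p = 0.00042). Hsp67Bb is named after the locus, but its protein has a rhodanese-like domain and no α-crystallin domain. It had 81.5 and 67.5 estimated counts after heat shock, against 4 and 1 in untreated cells, a log2 fold change of 5.21 ± 0.38 (SE, adjusted p = 2.3e-05). The groups do not overlap in any of these 3 genes. The size of the Hsp67Bb change hangs on its 5 untreated counts: the log2 fold change was 6.39 without untreated replicate 1 and 4.57 without untreated replicate 2, called in either case.

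The 2 members that lie elsewhere in the genome gave no call. l(2)efl is the fly gene most often set beside vertebrate αB-crystallin and is needed for embryonic survival. It had 34.1 and 29.2 estimated counts after heat shock, against 31 and 37 in untreated cells, and 3.37 ± 0.0459 CPM after heat shock, against 2.75 ± 0.381 CPM in untreated cells (SD, n = 2 each). Its log2 fold change was 0.29 ± 0.24 (SE, adjusted p = 0.372) with a 95% interval from -0.27 to 0.84, and the sign turned to -0.24 on total counts, still without a call. In this edgeR fit the upper bound lies under a 2-fold rise, while a smaller change in either direction was not detectable at this depth. In DESeq2, at 0.27 ± 0.53 (SE), a 2-fold rise is not excluded. CG7409, an α-crystallin gene, had 0 and 1 counts after heat shock and 0 in both untreated libraries. A count of 0 allows up to 3 counts, which is 0.299 CPM in heat shock replicate 1 and 0.240 and 0.245 CPM in the untreated libraries, and the 1 count of heat shock replicate 2 is 0.115 CPM. No fold change is given, and these limits cover counting error only.

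**Figure D2:**
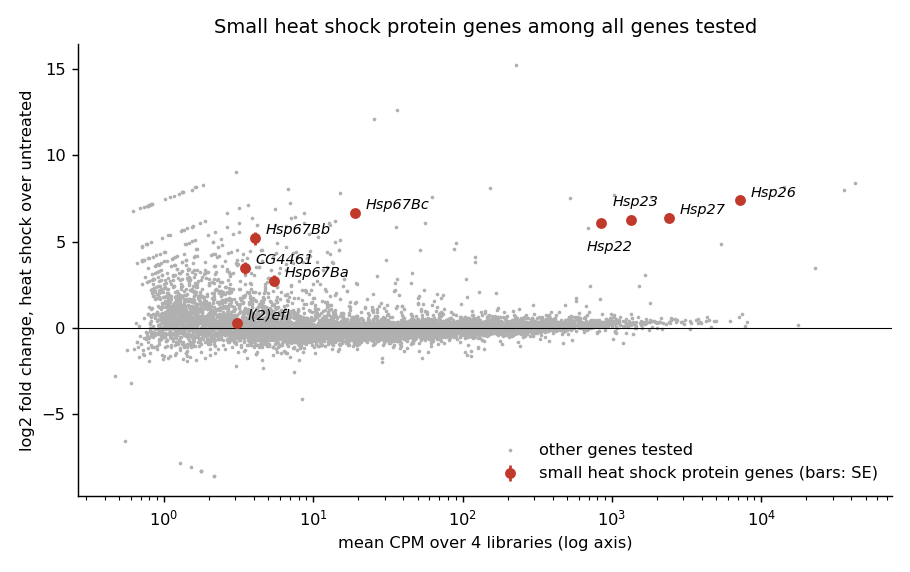
Log2 fold change (heat shock over untreated) against mean CPM over the 4 libraries on a log axis, for all 8784 genes tested (grey) and the 9 small heat shock protein genes that passed the filter (red, bars SE). Hsp26, Hsp27, Hsp23 and Hsp22 lie at high levels and at log2 fold changes from 6.05 to 7.41, Hsp67Bc, Hsp67Bb, CG4461 and Hsp67Ba at low levels and from 2.73 to 6.66, and l(2)efl at 0.29 (-0.24 on total counts).

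In sum over the 10 genes, small heat shock protein RNA made up 1.89% (95% Wilson interval 1.88% to 1.90%) and 1.99% (1.98% to 2.00%) of the counts after heat shock. In untreated cells it made up 0.0241% (0.0232% to 0.0251%) and 0.0252% (0.0243% to 0.0262%). These intervals cover counting error only. Per unit of length the share was 3.64 ± 0.147% of all TPM after heat shock and 0.0456 ± 0.00139% in untreated cells (SD, n = 2 each). Fewer RNA molecules of other genes and more of these cannot be told apart from shares, and neither can the share of cells that responded and the response per cell.

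**Figure D3:**
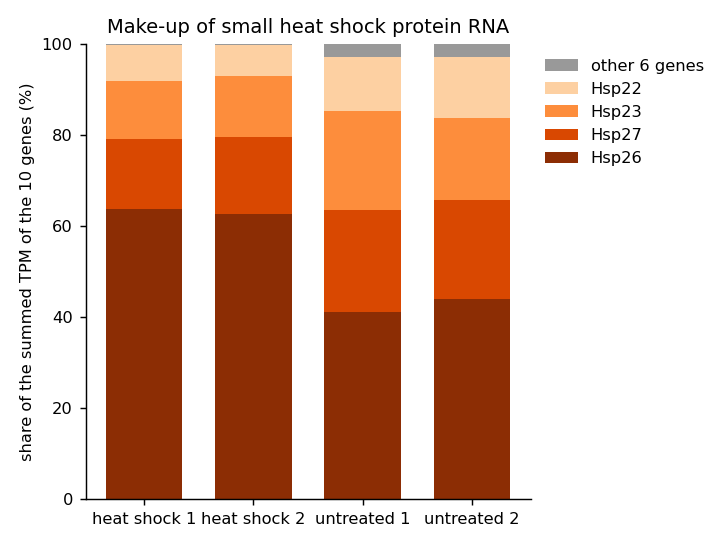
Share in percent of the summed TPM of the 10 small heat shock protein genes taken by Hsp26, Hsp27, Hsp23, Hsp22 and the other 6 genes together, one bar per library, heat shock at the left. The lowest segment, Hsp26, is 63.7% and 62.6% after heat shock and 41.1% and 43.9% in untreated cells.

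The make-up of this RNA shifted towards Hsp26. Hsp26 gave 63.7% and 62.6% of the members' summed TPM after heat shock, against 41.1% and 43.9% in untreated cells. The shares of the other abundant genes were lower after heat shock, with no overlap between the groups: Hsp27 gave 16.1 ± 1.08% after heat shock and 22.1 ± 0.357% in untreated cells, Hsp23 gave 13.2 ± 0.461% after heat shock and 19.9 ± 2.68% in untreated cells, and Hsp22 gave 7.33 ± 0.723% after heat shock and 12.6 ± 0.992% in untreated cells (SD, n = 2 each). With 2 libraries a group an exact permutation test cannot go below a two-sided p of 0.333, so these shares are descriptions. Shares of a sum are bound to each other, so the rise of Hsp26's share and the fall of the others are a single measurement. Together these 4 genes made up 99.7 ± 0.00363% of the members' TPM after heat shock and 97.1 ± 0.0695% in untreated cells.

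The order of levels kept its upper part and changed below it. By mean TPM it ran Hsp26, Hsp27, Hsp23, Hsp22 in both groups, and no neighbouring pair of these overlapped in its 2 libraries. After heat shock Hsp67Bc came next, followed by CG4461 with 9.74 and 13.4 TPM. Hsp67Bb (9.50 and 7.64 TPM), Hsp67Ba (6.43 and 10.2 TPM) and l(2)efl (7.28 and 7.08 TPM) followed, and neighbours among these 3 did not differ beyond their spread. In untreated cells l(2)efl came directly after Hsp22, with 7.68 and 9.04 TPM. Hsp67Ba (1.32 and 2.21 TPM), CG4461 (1.89 and 1.04 TPM), Hsp67Bb (1.36 and 0.45 TPM) and Hsp67Bc (0.55 and 1.08 TPM) came after it, and neighbours among these 4 overlapped. Hsp67Bc thus stood in place 5 after heat shock and in place 9 in untreated cells, and l(2)efl in place 9 after heat shock and in place 5 in untreated cells, while CG7409 was last in both groups.

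Most members were chosen for their place in the 67B cluster. In the annotation of the BDGP6 (dm6) assembly, 8 of the 10 lie within 14.2 kb on chromosome arm 3L, from 9371511 to 9385694. From the left these are Hsp67Bc, Hsp67Bb, Hsp22, CG4461, Hsp26, Hsp67Ba, Hsp23 and Hsp27. Hsp67Bc, Hsp26 and Hsp67Ba are read on the minus strand and the other 5 on the plus strand. Apart from Hsp67Bb and Hsp22, which overlap, they are parted by short gaps, from 124 bases between CG4461 and Hsp26 to 2347 bases between Hsp67Ba and Hsp23. CG7409 also lies on 3L, but apart from the cluster (7754409 to 7755168), and l(2)efl lies on 2R (23684651 to 23685543). All 8 genes of the cluster were called higher. Of the 2 genes outside it, l(2)efl was tested on few counts and not called, and CG7409 had too few counts to be tested. Gene structure was not used to choose them. Most members lack introns: 7 of the 10 have a single exon in every annotated transcript, against 15.3% of 13732 protein-coding genes. The exceptions are l(2)efl, Hsp67Bb and a long transcript of Hsp22. Most of the proteins are of like size, from 154 codons (CG7409) to 213 codons (Hsp27), while Hsp67Bb has 111 codons and Hsp67Ba 445.

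**Figure D4:**
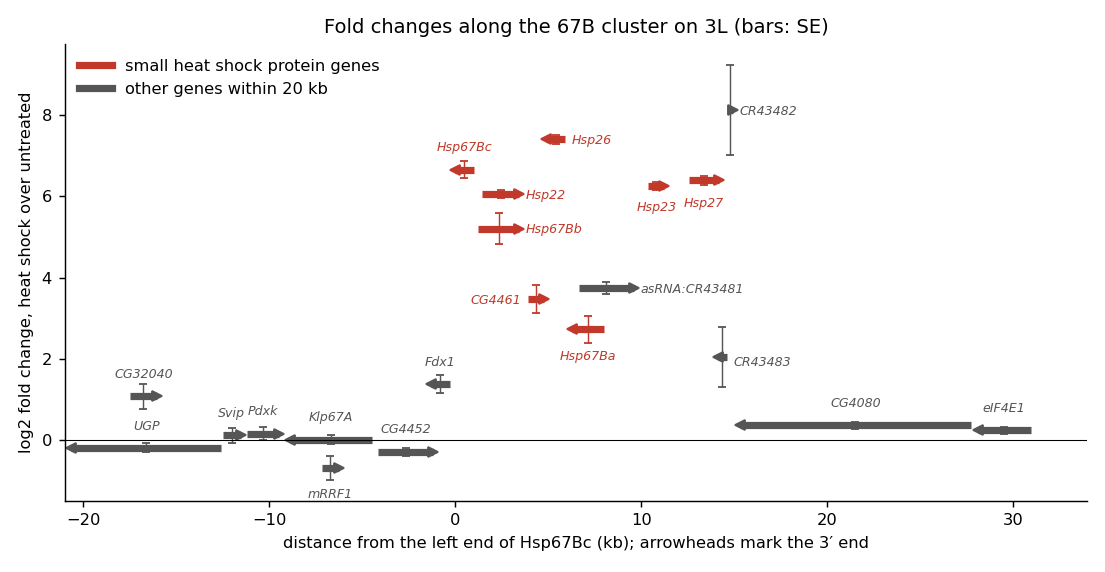
Log2 fold change (heat shock over untreated, bars SE) along the 67B cluster on 3L, against distance in kb from the left end of Hsp67Bc, with small heat shock protein genes in red and other tested genes within 20 kb in grey. All 8 red genes lie at 2.73 or above, as do asRNA:CR43481 (3.75) and CR43482 (8.12), while the other grey genes lie between -0.67 and 2.06 (CG4080 and eIF4E1, at 0.37 and 0.25, turn negative on total counts, and eIF4E1 is called lower there).

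Some of these genes share sequence with a neighbour, and the estimated counts then rest on how reads were divided between them. For 4 pairs the deposited posterior standard deviation of the count, which measures the doubt in that division, was equal in both genes in all 4 libraries. In the pair of Hsp22 and Hsp67Bb, Hsp22 lies wholly within Hsp67Bb on the same strand (2034 shared bases), and the longest annotated transcripts of the 2 genes have identical exons. The posterior standard deviation was 39.0 and 32.5 counts after heat shock and 1.67 and 1.58 in untreated cells. That is 47.9% and 48.1% of the Hsp67Bb count after heat shock and 41.8% and 158% of it in untreated cells. It is 0.225% and 0.231% of the Hsp22 count after heat shock and 0.584% and 0.469% of it in untreated cells, so the level and fold change of Hsp67Bb are uncertain and that of Hsp22 hardly touched. With both counted as 1 gene the log2 fold change was 6.05 ± 0.10 (SE).

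Hsp67Ba shares 1375 of its 1733 bases with asRNA:CR43481, a non-coding gene on the opposite strand. Whether counting used the strand is not given in the sources used here. The equal posterior standard deviations show that reads were divided between these 2 genes although they lie on opposite strands. They were 9.54 and 9.55 counts after heat shock and 2.36 and 4.16 in untreated cells. That is 13.0% and 9.34% of the Hsp67Ba count after heat shock and 18.1% and 18.9% of it in untreated cells. Reads in the shared bases thus cannot be told apart. The antisense gene had 257 and 214 estimated counts after heat shock, against 21.99 and 24.03 in untreated cells, a log2 fold change of 3.75 ± 0.16 (SE, adjusted p = 6.6e-07). It held more of the pair's counts than Hsp67Ba did in every library, 77.8% and 67.7% after heat shock and 62.8% and 52.2% in untreated cells. Summed with its antisense partner, Hsp67Ba would read 3.40 ± 0.15 in place of 2.73 (log2, SE).

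The third pair is Hsp27 and CR43482, which is annotated as a pseudogene 418 bases beyond the end of Hsp27. CR43482 had 5282 and 743 estimated counts after heat shock, against 2.96 and 24.2 in untreated cells. Its log2 fold change of 8.12 ± 1.11 (SE, adjusted p = 0.00083) is the most uneven of the region, and it read 6.27 and 8.90 without heat shock replicate 1 and 2, and 7.27 and 10.2 without untreated replicate 1 and 2 (the call was lost in limma-voom, adjusted p = 0.065). Its share of the pair's counts was 10.8% and 1.64% after heat shock and 0.430% and 3.31% in untreated cells. The pair's sum was even between replicates, 49083 and 45362 counts after heat shock and 688 and 730 in untreated cells, and gave a log2 fold change of 6.46 ± 0.09 (SE), near the 6.40 of Hsp27 alone. In the fourth pair, l(2)efl and St3, the posterior standard deviation was at most 3.53% of the l(2)efl count.

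Changes among the genes around the cluster ranged from log2 -0.67 (mRRF1, not called) to 8.12 (CR43482). Within 20 kb of its ends lie 15 other annotated genes, of which 13 were tested, 6 were called higher (beside the 21.4% of all genes) and 7 were not called, with a median log2 fold change of 0.25. In edgeR 0 were lower, with 1 (CG4452) at an unadjusted p under 0.05, and 0 were lower in DESeq2 and limma-voom. This tally turned with the scaling: 4 neighbours were higher and 6 lower on total counts, 3 higher and 5 lower on the TPM scales, and 5 higher and 3 lower with totals without heat shock genes. Besides asRNA:CR43481 and CR43482 these were Fdx1, CG32040, CG4080 and eIF4E1. Fdx1, a ferredoxin gene ending 273 bases from Hsp67Bc, had 143 and 102 estimated counts after heat shock, against 48.2 and 75.4 in untreated cells, a log2 fold change of 1.39 ± 0.22 (SE, adjusted p = 0.00169). CG32040 stood at 1.09 ± 0.31 on few counts (26 and 21 after heat shock, 17 and 12 in untreated cells) and lost its call without heat shock replicate 1 (1.03) or untreated replicate 2 (0.87), on total counts (0.56, adjusted p = 0.14), in DESeq2 (adjusted p = 0.305) and on the TPM scales. CG4080 (0.37 ± 0.08) and eIF4E1, the cap-binding translation factor (0.25 ± 0.09), were called higher, but neither call held in DESeq2 (adjusted p = 0.185 and 0.111) or with totals without heat shock genes. On total counts CG4080 stood at -0.17 without a call, and eIF4E1 was called lower (-0.28, adjusted p = 0.00754), as it was on the TPM scales. The call of eIF4E1 was also lost with no low-count filter and without heat shock replicate 1 (0.20) or untreated replicate 1 (0.13). Klp67A, a kinesin gene 4465 bases from Hsp67Bc, stood at 0.02 ± 0.11, and CG4452, at a distance of 1211 bases, at -0.28 ± 0.11 (adjusted p = 0.0645).

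Another 3 genes of the fly encode α-crystallin domains and were looked at beside the members. CG14207 had 967 and 903 estimated counts after heat shock, against 873 and 917 in untreated cells. Its log2 fold change was 0.46 ± 0.07 (SE, adjusted p = 0.00172), but -0.069 on total counts and -0.033 on log2(TPM + 1), with no call on either scale. CG13133 and CG43851 had 0 counts in all 4 libraries.

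RNAs of the proteins that work with small heat shock proteins on their clients changed unevenly. Of the 8 genes listed as partners, 6 were called higher and 1 lower (beside 21.4% and 18.6% of all genes tested), with a median log2 fold change of 0.77. On total counts 5 were higher and 2 lower. The steepest was stv (starvin), the fly relative of BAG3, with 48370 and 39038 estimated counts after heat shock, against 604 and 608 in untreated cells. Its log2 fold change was 6.57 ± 0.09 (SE, adjusted p = 6.3e-10). DnaJ-1, an Hsp40 that feeds clients to Hsp70, rose by 4.87 ± 0.08 (adjusted p = 1.7e-09), and ref(2)P, the fly p62 that links aggregates to autophagy, by 1.55 ± 0.06 (adjusted p = 5.0e-07). Hsc70-4, the constitutive Hsp70 relative, was at 0.81 ± 0.07, Hsc70Cb, the fly Hsp110, at 0.72 ± 0.07, and Droj2, another Hsp40, at 0.57 ± 0.09, all 3 called higher. Droj2 lost the call on total counts (0.04, adjusted p = 0.658). mrj, an Hsp40 related to human DNAJB6, was lower, with 256 and 189 estimated counts after heat shock, against 513 and 506 in untreated cells (-0.80 ± 0.09, adjusted p = 0.00038). STUB1, a chaperone-linked ubiquitin ligase, was at -0.11 ± 0.08 (adjusted p = 0.261) and was called lower on total counts (-0.65).

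**Figure D5:**
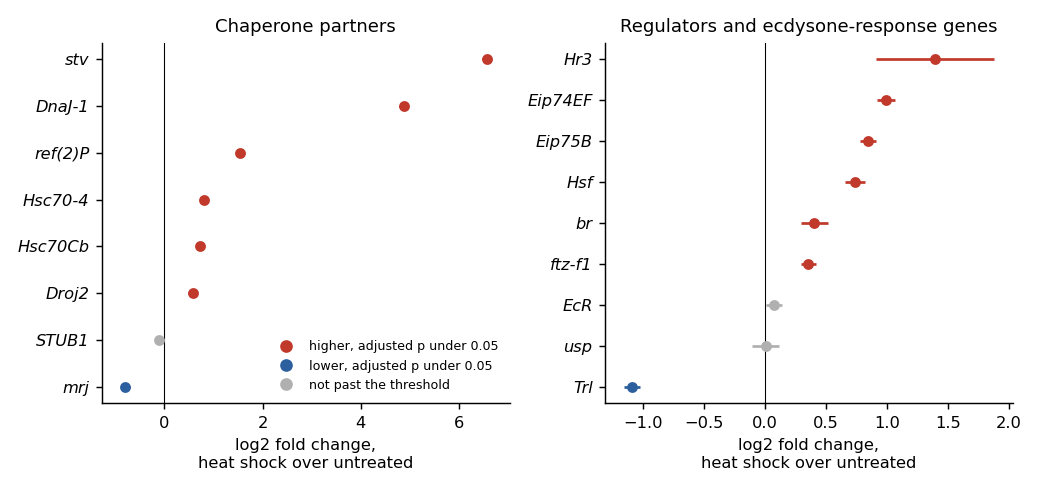
Log2 fold change (heat shock over untreated, bars SE) of 8 chaperone partners and of 9 regulators and ecdysone-response genes, red for genes called higher, blue for genes called lower, grey for genes not past the threshold. stv (6.57) and DnaJ-1 (4.87) stand apart from all other genes shown, while mrj (-0.80) and Trl (-1.10) lie below 0 (br and ftz-f1, at 0.40 and 0.35, turn negative on total counts, and ftz-f1 is called lower there).

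RNAs of the factors known to act on the cluster, and of genes induced with them by ecdysone, had log2 fold changes from -1.10 to 1.39. Of 9 genes listed as regulators and their ecdysone-induced companions, 6 were called higher and 1 lower (beside 21.4% and 18.6% of all genes tested), and the median log2 fold change was 0.40. On total counts 2 were higher and 4 lower. Hsf, Heat shock factor itself, had 1387 and 1335 estimated counts after heat shock, against 1160 and 1007 in untreated cells (0.73 ± 0.08, adjusted p = 0.00032), and was not called on total counts (0.20, adjusted p = 0.0565). Trl encodes GAGA factor, which keeps these promoters open before heat shock. It fell, with 818 and 697 estimated counts after heat shock, against 2120 and 2150 in untreated cells (-1.10 ± 0.06, adjusted p = 6.4e-06). The ecdysone receptor gene EcR (0.07 ± 0.06, adjusted p = 0.422) and usp, its dimer partner (0.00 ± 0.11, adjusted p = 0.989), did not pass the test, and both were called lower on total counts (-0.47 and -0.53). Of the ecdysone-response genes, Eip74EF (0.99 ± 0.08) and Eip75B (0.84 ± 0.07) were called higher. br (0.40 ± 0.11) and ftz-f1 (0.35 ± 0.06) were called higher here, but not with totals without heat shock genes. On total counts br stood at -0.13 without a call and ftz-f1 was called lower (-0.18, adjusted p = 0.0441), and br also lost its call in DESeq2 (adjusted p = 0.268) and without heat shock replicate 1 (0.39). Hr3 rested on 5 to 20 counts a library (1.39 ± 0.49, adjusted p = 0.0493), with 0.87 and no call without heat shock replicate 2, 0.95 and no call without untreated replicate 2, and 2.03 without untreated replicate 1. Its call was also lost on total counts (adjusted p = 0.11), with totals without heat shock genes (0.0627), in DESeq2 (0.299), in limma-voom (0.054) and on the TPM scales.

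Among all other tested genes, the profile nearest to the median profile of the 9 tested members was that of DnaJ-1. Likeness was the Euclidean distance between profiles of log2(CPM + 1) over the 4 libraries, each centred on its mean, and DnaJ-1 lay at 0.1299. It averaged 10455 ± 285 CPM after heat shock and 357 ± 15.4 CPM in untreated cells (SD, n = 2 each). CG3281 came next at a distance of 0.198, with 174 ± 4.35 CPM after heat shock and 5.66 ± 0.193 CPM in untreated cells. CG6785 (0.338), CG1632 (0.459) and CG3857 (0.467) followed. With 4 libraries in 2 groups, such a ranking mostly sorts genes by the size of their change on this scale. There the added 1 CPM shrinks the changes of genes at low levels. Between single libraries Hsp67Bc, at a log2 fold change of 6.66, read 4.69 to 4.99 on this scale. CG1632, at 7.82, read 4.51 to 5.08, and DnaJ-1, at 4.87, read 4.80 to 4.94. The nearest genes are thus not those nearest to the members' median log2 fold change of 6.05.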

How the data were processed

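Per the labels and the submitters' processing notes, reads were trimmed (Trimmomatic 0.36) and handled with STAR 2.6.1c and RSEM 1.3.1 on BDGP6/dm6. The study's methods name featureCounts and DESeq2 for its own test. The authors deposited RSEM estimated counts per gene with posterior standard deviations, and TPM, which is scaled by effective length and library total. The 2 pooled tables were not used. Estimated counts were rounded and tested in edgeR 4.0.16 (R 4.3.3; filterByExpr, TMM, quasi-likelihood test, Benjamini-Hochberg, adjusted p under 0.05), with heat shock as the only term. The script was tested on simulated data. Depth was 10221418 to 11988483 counts a library. Gene symbols were found for 17569 of 17697 genes. Positions came from the annotation of the same assembly, where 99.7% of 10189 single-transcript genes had the deposited length. Hsp67Bb was matched through its synonym CG4456. Named genes were the 10 members, listed partners and regulators, called neighbours within 20 kb, reference heat shock genes and the 5 nearest profiles. The members and lists were chosen with earlier results of these data known. DESeq2 1.42.0, limma 3.58.1 and other scalings and filters served as alternatives. Promoter motifs and protein identity were not analysed here.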

Additional observations from a re-analysis of the deposited data

How the results depend on the processing

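The 8 members called higher kept their direction and call under every alternative that tested them. With Hsp22 and Hsp67Bb counted as 1 gene, 7 were higher, and this setting does not test Hsp67Bb by itself. No alternative took in the doubt in how reads were divided between genes. With at least 10 counts in every library 5 were higher, all 5 at least 2-fold, because the filter removed genes of few counts. l(2)efl, never called, was -0.24 on total counts, and -0.19 and -0.21 on TPM with pseudocounts of 1 and 0.1. Leaving out each library in turn gave 8 to 8 members higher, 5 to 6 regulators higher, 6 to 7 neighbours higher and 0 to 1 lower; the lone sample left in a group is then assumed to vary like the other group. Member log2 fold changes ranged over all settings from 6.87 to 7.504 for Hsp26, 5.85 to 6.50 for Hsp27, 5.72 to 6.33 for Hsp23, 5.51 to 6.18 for Hsp22, 5.07 to 7.23 for Hsp67Bc, 2.36 to 6.39 for Hsp67Bb, 2.35 to 3.92 for CG4461 and 1.74 to 3.40 for Hsp67Ba. Members took 3.64% of TPM after heat shock and 0.0456% in untreated cells.

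The small changes of other genes depended on the scaling. Total counts and both TPM scales gave 0 other α-crystallin genes higher, 2 partners lower (2 also with totals without heat shock genes) and 2 regulators higher (3 with totals without heat shock genes). Regulators lower were 4 on total counts and 3 on both TPM scales. Neighbours higher were 3 in DESeq2 and on both TPM scales, and 10 within 50 kb. Neighbours lower were 6 on total counts, 5 on both TPM scales, 3 with totals without heat shock genes, and 1 with no low-count filter or the crossed replicate block. On total counts and the TPM scales with pseudocounts of 1 and 0.1, in that order, signs turned for CG14207 (-0.069, -0.033, -0.033), br (-0.13, -0.12, -0.14), ftz-f1 (-0.18, -0.18, -0.18), CG4080 (-0.17, -0.13, -0.14), eIF4E1 (-0.28, -0.26, -0.26), EcR (-0.47, -0.48, -0.49; -0.13 with totals without heat shock genes) and usp (-0.53, -0.52, -0.54). usp, at 0.00, was also -0.20 with totals without heat shock genes, -0.039 with no filter, -0.016 in DESeq2, -0.0044 in limma-voom, -0.0060 and -0.0028 with the replicate block and its crossed form, and -0.19 to 0.15 without single libraries. Over all genes, total counts called 7024 genes, the TPM scales 6866 and 6803 and DESeq2 1824, against 3513. The cause was not tested.

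Replicates of the 2 groups share only a number: deviations of same-numbered libraries correlated at -0.17. The replicate block called 3269 genes and the crossed pairing, chosen after seeing the data, 4640, against 3513, and neither changed the call of a member. Motifs in promoters, in either window, and protein identity were not run.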

Other observations

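The deposited gene lengths are weighted over each gene's transcripts, so for genes with 2 transcripts they give the share of the longer transcript. For Hsp27 the longer transcript, of 1632 bases, had 3.22% and 2.27% after heat shock and 0 in both untreated libraries, where the shorter one has 1220 bases. For Hsp23, whose transcripts of 884 and 849 bases differ little, the longer one had 30.6% and 18.2% after heat shock and 15.0% and 23.03% in untreated cells, with overlap between the groups. For Hsp22 the longer one, of 1900 bases, had 0.176% and 0.223% after heat shock and 0 in both untreated libraries. The longest Hsp67Bb transcript has the same exons, so this share rests on how reads were divided between the genes. Depth differs strongly between the groups for these genes, and a listed share of 0 in untreated cells rests on at most 706 counts of Hsp27 and 337 of Hsp22.

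Of the markers of other cell types, nSyb, a neuronal vesicle protein, had 29 and 17 estimated counts after heat shock and 4 and 2 in untreated cells. Fbp1, a fat body gene, had 12 and 14 counts after heat shock and 4 and 3 in untreated cells. Both were called higher in edgeR (adjusted p = 0.00101 and 0.0053), at levels of a few CPM. They are 2 of the 4 tested markers of other cell types, beside 21.4% of all genes tested. The other 2 were not called. elav, also neuronal and the most abundant of the list (22.2 to 30.6 TPM), stood at 0.19 ± 0.08 (log2, SE, adjusted p = 0.101). Mhc, a muscle gene, stood at -0.49 ± 0.42 (adjusted p = 0.375).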
